A study of Mus musculus with 12 samples.

Results

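The report concerns 8 genes of antigen presentation and of the Langerhans cell in neonatal mouse dermis. They are H2-Aa, H2-Ab1 and H2-Eb1, which encode chains of the classical MHC class II molecules, H2-DMa and H2-DMb1, the chains of the peptide exchange factor H2-DM, Cd74, the invariant chain, Ciita, the class II transactivator, and Cd207, which encodes langerin. The members were given by name and matched to probe sets annotated to that gene symbol alone, which measured 7 of the 8 genes among 18193 genes in all. These 7 had 15 probe sets: 4 for H2-Aa, 3 for H2-Ab1, 1 for H2-Eb1, 2 for H2-DMa, 1 for Cd74, 3 for Ciita and 1 for Cd207. Both probe sets of H2-DMb1 are annotated jointly with its neighbour H2-DMb2, so H2-DMb1 has no value of its own here.

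RNA from skin of C57Bl6/CBA F1 mice was hybridised to 12 Affymetrix MG430.2A arrays, 3 in each of 4 groups: P1 Tail and P5 Tail, and P1 Back and P5 Back, where P1 and P5 are 1 and 5 days after birth. No group carried a transgene or a treatment in the labels, and the study describes the material as dermis of triplicate mice, pulled away from the epidermis and digested to single cells. Tail skin was loosened in EDTA and back skin in dispase and trypsin, so body site and separating solution cannot be told apart. That protocol names P1 mice only, and nothing states whether tail and back arrays of 1 number came from 1 animal. If some arrays share an animal or culture, the p-values measure a spread that is in part technical.

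MHC class II molecules carry peptides from endosomes to the surface of professional antigen presenting cells, where CD4 T cells read them. The invariant chain guides new class II molecules to the endosome and blocks their groove until it is cleaved, and H2-DM then exchanges the remaining fragment for other peptides. CIITA switches most of these genes on together by binding to a complex of RFX, CREB and NF-Y factors that sits on the X1, X2 and Y boxes of their promoters. Langerhans cells are the class II bearing phagocytes of the epidermis; their precursors seed mouse skin before birth, and langerin and high class II levels are acquired in the days after it. Dermal dendritic cells and macrophages also carry class II molecules.

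The shared promoter boxes are shown here because the class II members are known to be switched on through them. Windows of 300 bases, from 250 before to 50 after the start of transcription, were held in the RefSeq promoter table (GRCm38.p6) for 5 of the 8 members, and H2-Ab1, Cd74 and Ciita are named only. An X1 box was searched by its core AACNGATG, an X2 box as TGACGTCA and a Y box as TGATTGG on both strands. In the reading direction of each gene, the stretch from 160 to 21 bases before the start is given below, with the matches in capitals. H2-DMb1 lies at chr17:34153031-34153170 on the plus strand, H2-Aa at chr17:34287844-34287983 on the minus strand and H2-Eb1 at chr17:34305707-34305846 on the plus strand. All of it is upstream of the transcribed part, and the sequence is that of the reference assembly, not of the CBA allele that the F1 mice also carry.
H2-DMb1: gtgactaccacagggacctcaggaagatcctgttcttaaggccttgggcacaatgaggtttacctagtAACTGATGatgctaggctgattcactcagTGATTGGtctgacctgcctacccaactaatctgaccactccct
H2-Aa: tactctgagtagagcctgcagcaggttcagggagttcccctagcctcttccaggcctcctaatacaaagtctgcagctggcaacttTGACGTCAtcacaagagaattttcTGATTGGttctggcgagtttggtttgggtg
H2-Eb1: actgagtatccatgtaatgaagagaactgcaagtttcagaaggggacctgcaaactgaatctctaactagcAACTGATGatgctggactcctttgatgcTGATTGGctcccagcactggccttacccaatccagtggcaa
The X1 match of H2-DMb1 began 92 bases before the start and its Y match 63 bases before it. In H2-Eb1 these distances were 89 and 61 bases, while H2-Aa held an X2 match at 74 and a Y match at 50 bases. No match to these letters was found in the windows of H2-DMa or Cd207. Among 32851 promoters of the same length, 2.32% held the X1 letters, 1.79% the X2 letters, 7.82% the Y letters and 0.186% (61 promoters) both X1 and Y.

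The deposited log2 values are centred for each probe set on its median over the 12 arrays, so they give differences between arrays and neither levels nor signal over background. A value of 0 is therefore the middle of the 12 arrays and not absence of the transcript, and no gene's level can be set against another's. P5 Tail replicate 2 stood apart: the SD over all its probe sets was 0.495, against 0.227 to 0.338 on the other 11 arrays. Directions between sites are given as the arrays are labelled. At P1, 7 of 10 posterior Hox genes were higher in the arrays labelled back (Hoxd11, labelled tail minus labelled back, -3.09). At that age 10 of 13 adipocyte genes were higher in those labelled tail (Adipoq, 5.23). At P5, 7 posterior Hox genes were again higher in the arrays labelled back (Hoxd11, -3.28), and 4 of 13 adipocyte genes in those labelled tail. The median difference of the adipocyte genes was 1.72 at P1 and 0.53 at P5. Posterior Hox genes are known to mark the tail. The direction of the adipocyte genes is opposite to that the study gives for fat metabolism at the neonatal sites, and for the Hox genes the study gives none. The labels were kept, and exchanging tail and back at both ages would exchange the 2 within-site comparisons of age and turn the sign of every site difference and of the interaction. The mean age difference over both sites does not depend on them.

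From P1 to P5, 2 class II members rose in the arrays labelled tail, where 3.34% of all genes were called higher. There, Cd74 rose by 0.92 on the log2 scale (SE 0.22), which is 1.89-fold (95% interval 1.36 to 2.62), and H2-Eb1 rose by 0.54 (SE 0.14), which is 1.45-fold (1.17 to 1.79). All 7 measured members had differences above 0, as had 57.2% of all genes, but 5 did not pass the test. Neither call held with array weights or with only the tail arrays fitted. Nor did either hold without P1 Tail replicate 4, P1 Tail replicate 6 or P5 Tail replicate 2. In the back arrays no member passed, against 4.25% of all genes. Between the labelled sites none passed at P1 (3.97% of all genes) or at P5 (6.91%). The difference between the age responses of the sites did not pass for any member (2.87% of all genes).

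Cd74, the invariant chain, stood at -0.60, -0.011 and -0.28 on the P1 Tail arrays 4, 5 and 6 and at 1.13, 0.065 and 0.66 on the P5 Tail arrays 2, 3 and 4. The back arrays read -0.055, 0.011 and -0.13 at P1 (replicates 1, 5 and 6) and -0.11, 0.13 and 0.016 at P5 (replicates 1, 2 and 3). The P5 Tail arrays were all above the P1 Tail arrays, with little between P5 Tail replicate 3 and P1 Tail replicate 5, and the 6 back arrays lay within the span of the tail arrays. The rise in the tail arrays passed limma's test over all genes (adjusted p = 0.0296, Benjamini-Hochberg). Without P5 Tail replicate 2 the difference was 0.66 (limma, adjusted p = 0.0793). The call was also lost without P1 Tail replicate 4 (0.76), P1 Tail replicate 6 (0.92) or P5 Tail replicate 4 (0.90).

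H2-Eb1, a class II beta chain, read -0.55, -0.12 and -0.40 in P1 Tail and 0.44, 0.012 and 0.095 in P5 Tail. Its back arrays read -0.068, 0.015 and -0.22 at P1 and 0.060, -0.012 and 0.23 at P5. The tail groups did not overlap, whereas those of the back did. The tail difference passed narrowly (0.54, limma adjusted p = 0.0461), and so did the mean over both sites (0.36, SE 0.10, limma adjusted p = 0.0495). Without P5 Tail replicate 2 the tail difference was 0.41 (limma, adjusted p = 0.121), and the call held only without P1 Tail replicate 5, P5 Tail replicate 3 or P5 Tail replicate 4 among the 12 arrays left out in turn. Fitted per probe set over all 45037 probe sets its adjusted p was 0.0743 in limma, against 0.0417 for Cd74.

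H2-Aa and H2-Ab1, the alpha and beta chains of the I-A molecule, followed each other over the 12 arrays (Pearson's r = 0.939). Without P5 Tail replicate 2 their r was 0.787. H2-Aa read -0.25, 0.023 and -0.37 in P1 Tail, 0.98, 0.19 and 0.12 in P5 Tail, -0.11, -0.20 and -0.020 in P1 Back and -0.030, 0.089 and 0.015 in P5 Back. H2-Ab1 read -0.32, 0.081 and -0.29 in P1 Tail, 0.97, 0.26 and 0.21 in P5 Tail, -0.13, 0.074 and -0.069 in P1 Back and -0.25, 0.15 and -0.052 in P5 Back. For both genes the P5 Tail arrays were above all P1 Tail arrays, and replicate 2 was far above the other P5 Tail arrays. The tail differences were 0.63 (SE 0.19) for H2-Aa and 0.66 (SE 0.19) for H2-Ab1, and neither passed (limma, adjusted p = 0.0779 and 0.0664). Without P5 Tail replicate 2 they were 0.36 and 0.41.

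H2-DMa, the alpha chain of the peptide exchange factor, read -0.34, 0.28 and -0.33 in P1 Tail and 0.66, 0.0011 and 0.37 in P5 Tail. The groups overlapped, as P1 Tail replicate 5 was above P5 Tail replicate 3. In the back arrays H2-DMa lay between -0.066 and 0.14 at P1 and between -0.13 and -0.032 at P5. The tail difference of 0.48 (SE 0.18) did not pass (limma, adjusted p = 0.158).

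Ciita, whose product is needed for class II transcription, varied little on these arrays when its 3 probe sets were averaged. The average lay between -0.16 and 0.054 in P1 Tail, between -0.25 and 0.11 in P5 Tail, between -0.032 and 0.031 in P1 Back and between 0.034 and 0.11 in P5 Back. The tail difference was 0.015 with a 95% interval of -0.22 to 0.25, so a rise of the size seen for Cd74 lay outside the interval. Its P5 Back arrays were all above its P1 Back arrays, but by a mean of 0.067 only (SE 0.11, limma adjusted p = 0.926); 14.4% of all genes were separated in that way. The SD of Ciita over the 12 arrays was 0.11, at percentile 7.83 among all genes, whereas the other 6 members lay between percentiles 74.5 and 92.9. That SD is of the average, which spanned 0.36. Singly, 1421210_at spanned 0.72 over the 12 arrays, 1421211_a_at 0.32 and 1447075_at 0.37, so the percentile does not describe each probe set. How far a small range reflects a probe set near background cannot be read from centred values.

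Cd207, the gene of the C-type lectin langerin and a marker of Langerhans cells, did not pass in any of the 6 comparisons. It read -0.55, 0.084 and -0.29 in P1 Tail, 0.0075, -0.0075 and 0.62 in P5 Tail, 0.035, 0.032 and -0.17 in P1 Back and -0.20, -0.54 and 0.10 in P5 Back. The groups overlapped in each comparison, and the highest array was P5 Tail replicate 4, not replicate 2, which was the highest for all 5 class II members. The tail difference was 0.46 (SE 0.21, 95% interval 0.0085 to 0.91, limma adjusted p = 0.232), the back difference -0.18 (SE 0.21) and the mean over both 0.14 (interval -0.18 to 0.46). Without P5 Tail replicate 4 the tail difference was 0.25.

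**Figure D1:**
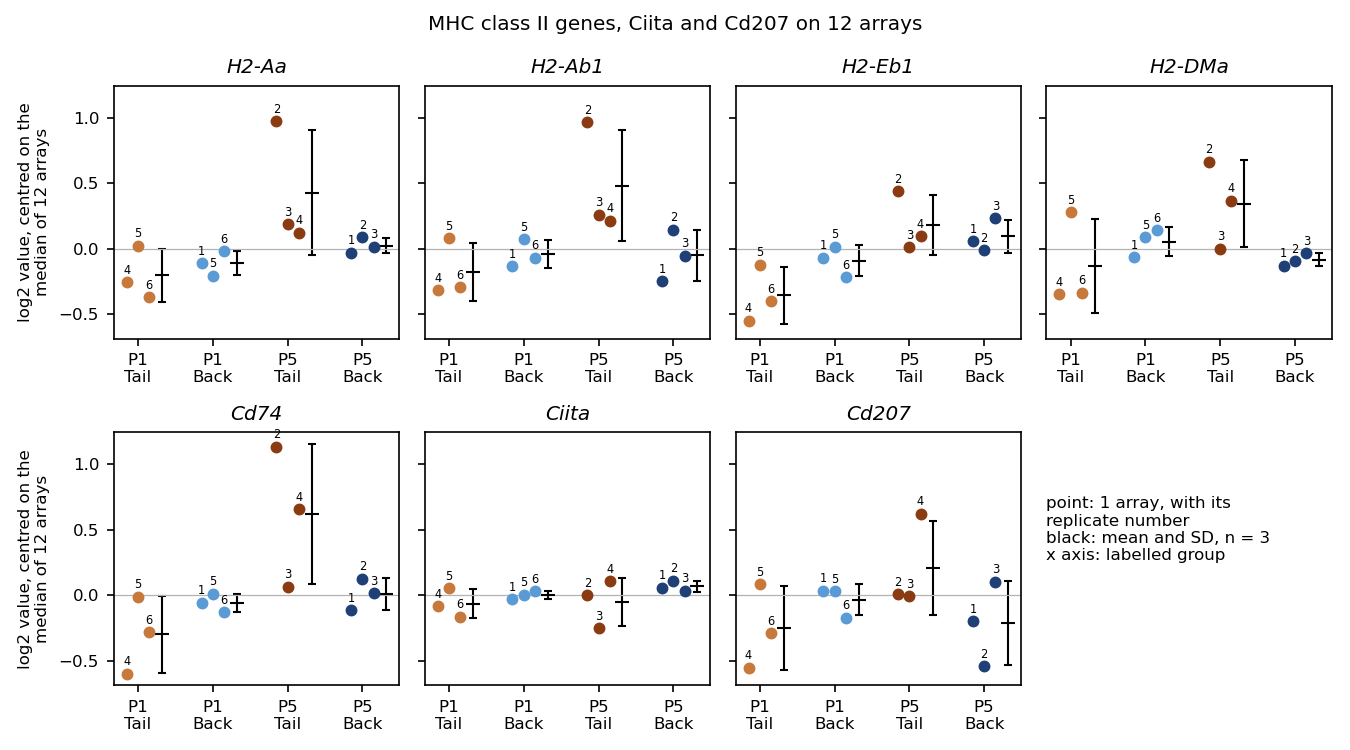
Each panel shows 1 gene, with the labelled group on the x axis and the log2 value centred on the median of the 12 arrays on the y axis; points are arrays with their replicate number, and black marks are means with SD (n = 3). P5 Tail replicate 2 is the highest array for H2-Aa (0.98), H2-Ab1 (0.97), H2-Eb1 (0.44), H2-DMa (0.66) and Cd74 (1.13), and Ciita stays between -0.25 and 0.11.

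The 15 probe sets did not all follow their gene's average. Of the 4 of H2-Aa, 1435290_x_at gave a tail difference of 0.95 and passed over all probe sets (limma, adjusted p = 0.0274), while 1443783_x_at gave 0.31 (limma, adjusted p = 0.37). For H2-Ab1 the differences ran from 0.35 (1425477_x_at) to 1.03 (1450648_s_at). The 2 probe sets of H2-DMa put the high P5 Tail array in different places: 1422527_at read 1.08, 0.016 and -0.016 on replicates 2, 3 and 4, and 1459872_x_at read 0.24, -0.014 and 0.75. Probe sets ending in _x_at or _s_at can bind transcripts of related genes, and all 4 of H2-Aa are of these kinds. For Ciita, 1421210_at differed by -0.15 between the ages in tail and the others by 0.084 and 0.11, none of which passed. At P5 the 3 Back arrays of 1421210_at, at 0.22, 0.20 and 0.24, were all above the Tail arrays, at -0.20, -0.47 and -0.048. That difference, labelled tail minus labelled back, was -0.46 (SE 0.13) and did not pass over all probe sets (limma, adjusted p = 0.0694).

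**Figure D2:**
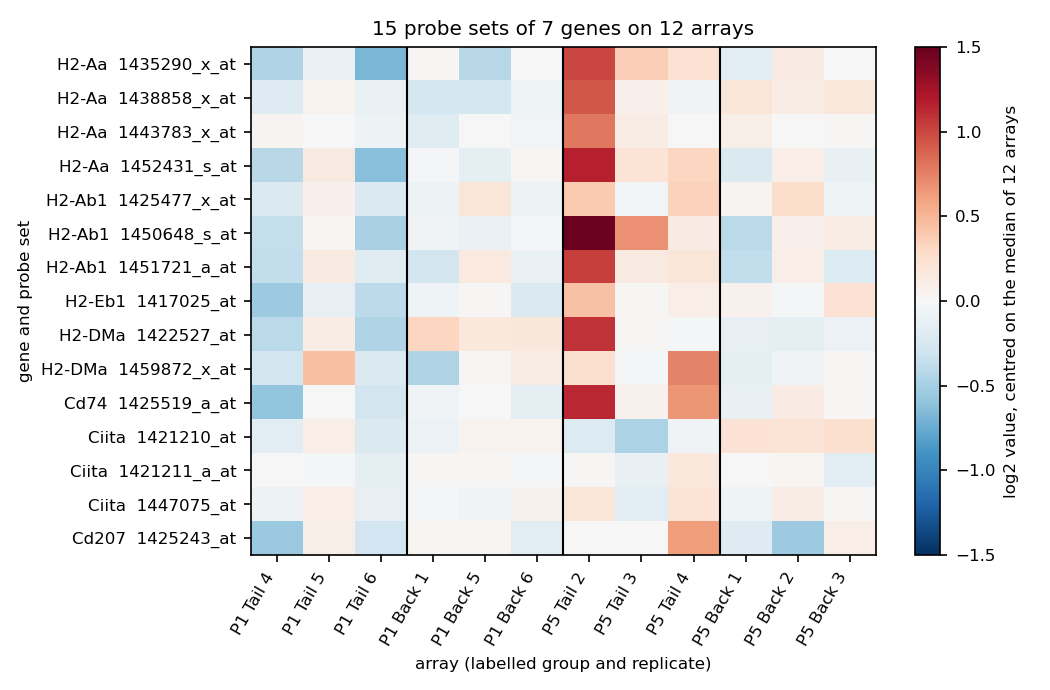
Rows are the 15 probe sets of the 7 measured genes, columns are the 12 arrays in their labelled groups, and colour is the log2 value centred on the median of the 12 arrays. The column of P5 Tail replicate 2 holds the darkest cell, 1.47 in 1450648_s_at of H2-Ab1, while the 3 Ciita probe sets stay between -0.47 and 0.24.

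Read against all genes, 2 of 7 members passed in the tail arrays, where 5.3% of all genes were called in either direction and 3.34% were called higher. At an unadjusted p under 0.05 in limma, 6 of 7 members were higher, against 11.8% of all genes. With only the tail arrays fitted in limma 4 of 7 had such a p, and in the methods' unpaired test 1 of 7. The measured class II members followed each other over the 12 arrays (Pearson's r from 0.713 to 0.939), so the 6 cannot be read as 6 separate results. Members were also chosen with earlier results of these data known. For Cd74, H2-Aa, H2-Ab1 and H2-Eb1 the tail groups did not overlap, with P5 above P1, as was so for 11.1% of all genes. All 7 members, and 57.2% of all genes, had a tail difference above 0, with a median of 0.54 for the members and 0.039 for all genes. In the mean over both sites 1 member (H2-Eb1) passed, against 6.71% of genes, and the members' median was 0.33, where that of all genes was 0.02.

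The members in the back arrays differed between the ages by -0.18 (Cd207) to 0.18 (H2-Eb1). None of the 7 passed limma's adjusted test, where 4.25% of all genes did, and 0 had an unadjusted p under 0.05 in limma (13.4% of all genes) or in the methods' t-test. For Cd74 the interaction, the tail difference minus the back difference, was 0.85 (SE 0.31, 95% interval 0.18 to 1.52) and did not pass after adjustment (limma, adjusted p = 0.207). The interaction was 0.66 for H2-Ab1 and 0.62 for H2-DMa (limma, adjusted p = 0.267 and 0.291). In all, 0 of 7 members passed for the interaction, against 2.87% of all genes, and 3 (Cd74, H2-Ab1 and H2-DMa) were above 0 at an unadjusted p under 0.05, against 8.36%. A difference in age response between the labelled sites is thus not shown for any member.

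At P1 every member was lower on average in the arrays labelled tail, by -0.065 (Ciita) to -0.27 (H2-Eb1), but none passed, against 3.97% of all genes, and 0 had an unadjusted p under 0.05 in limma (14.5% of all genes) or in the methods' t-test. The gene-wide median was -0.04 and 40.7% of all genes had a difference above 0. At P5 6 of 7 were higher on average in the arrays labelled tail: Cd74 by 0.61, H2-Ab1 by 0.53, H2-DMa by 0.43, Cd207 by 0.42, H2-Aa by 0.40 and H2-Eb1 by 0.088. A difference above 0 was seen in 46.3% of all genes. Of the 7 members 0 passed, against 6.91% of all genes, while 3 (Cd74, H2-Ab1 and H2-DMa) had an unadjusted p under 0.05 in limma (10.6% of all genes, higher) and 0 in the methods' t-test. The P5 Tail arrays were all above the P5 Back arrays for H2-Aa, H2-Ab1 and H2-DMa, as for 11% of all genes. Without P5 Tail replicate 2 these differences were 0.35 for Cd74, 0.29 for H2-Ab1, 0.27 for H2-DMa, 0.13 for H2-Aa and -0.040 for H2-Eb1. None of these 5 then had an unadjusted p under 0.05 in limma, while Cd207 did, and no member passed after adjustment. For Cd207 the difference ran from 0.21 to 0.58 with 1 array left out in turn. It was 0.21 without P5 Tail replicate 4 and 0.25 without P5 Back replicate 2.

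**Figure D3:**
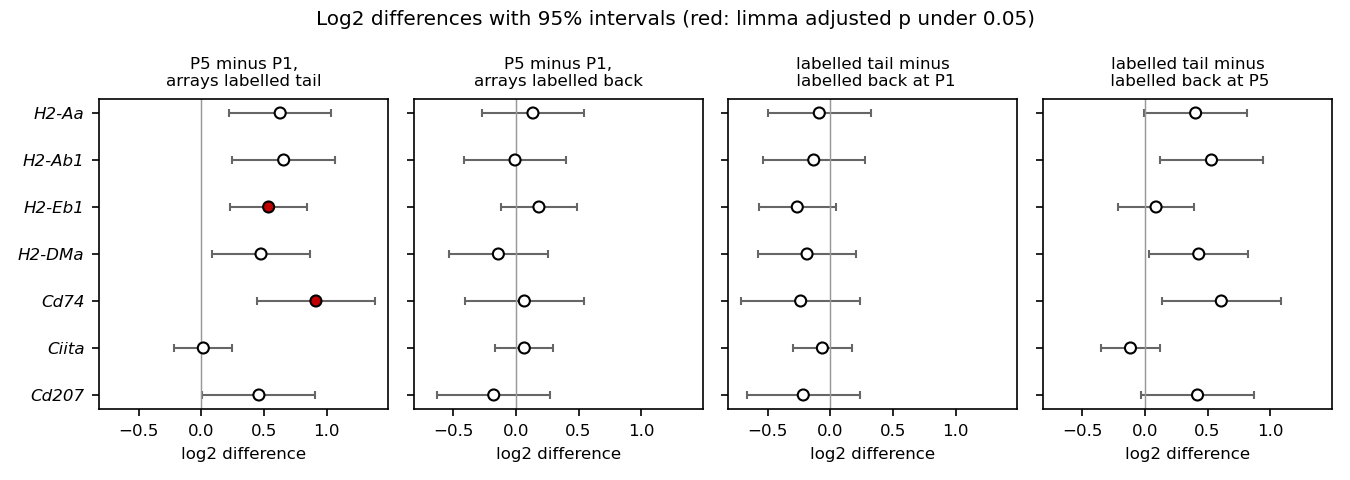
Points are log2 differences of the 7 measured genes with 95% intervals in 4 comparisons, from the limma fit on 12 arrays, and red points passed an adjusted p under 0.05. Red marks Cd74 (0.92) and H2-Eb1 (0.54) in the arrays labelled tail; all intervals in the back arrays and between sites at P1 hold 0.

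Over the 12 arrays the 5 measured class II members followed each other, with Pearson's r from 0.713 (H2-Eb1 and H2-DMa) to 0.939 (H2-Aa and H2-Ab1). Without P5 Tail replicate 2 these were 0.538 to 0.788. Ciita followed them weakly, at 0.11 to 0.379, and Cd207 at 0.268 (H2-Aa) to 0.63 (H2-DMa). These correlations describe the same 12 arrays, whose group means and array effects all pairs share. Among genes outside the members, the mean of the class II members was most like Pdlim2 (0.974), Drc1 (0.966), Fbxo6 (0.964), Ppp1r13l (0.963) and F11r (0.963). Cd207 was most like Zbp1, which encodes a nucleic acid sensor (0.915), Cyp27a1 (0.899), Ccl20, the ligand of the chemokine receptor CCR6 (0.895), Slco6c1 (0.883) and Cacng3 (0.878). Ciita was most like Scn9a (0.942), 1700001O22Rik (0.934), Manbal (0.93), Rpusd3 (0.921) and Pigz (0.918). With 18193 genes and 12 arrays, values of this size are a description only.

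Of the other genes of the class II pathway, 1 passed between the ages in the tail arrays, where 5.3% of all genes were called. None of 5 other class II chains passed in any comparison; their median tail difference was 0.30, with H2-DMb2 at 0.67 (limma, adjusted p = 0.10), H2-Ob at 0.34, H2-Ea at 0.30 and H2-Oa at 0.054. Of 11 genes of invariant chain cleavage and peptide loading, 1 passed: Ctsb, a lysosomal cysteine protease, rose by 0.50 in tail (SE 0.13, limma adjusted p = 0.0484) and by 0.55 in back (SE 0.13, limma adjusted p = 0.0345). Ctss, the protease that makes the last cut of the invariant chain in dendritic cells, differed by -0.53 and Lgmn, asparagine endopeptidase, by -0.48 in the tail arrays, and neither passed. Ifi30, the lysosomal thiol reductase GILT, named here after its value was seen, differed by 0.51 (limma, adjusted p = 0.152). Of 12 measured promoter factors of class II genes none passed in tail, and their median difference was 0.070, against 0.039 for all genes. Rfx5, a DNA binding subunit of RFX, differed by 0.27. Creb1, of the CREB factors, read 0.12, 0.089 and 0.097 in P1 Tail and -0.46, 0.12 and -0.14 in P5 Tail. In the back arrays, where 4.25% of all genes were called, 1 of the 12 factors fell. This was Irf1, an interferon induced activator (-0.95, SE 0.19, limma adjusted p = 0.0142).

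MHC class I molecules present peptides from the cytosol. Of 15 measured genes of that pathway, 1 passed in the tail arrays, where 5.3% of all genes were called. This was Nlrc5, the class I transactivator (0.76, SE 0.19, limma adjusted p = 0.0391). The median of the 15 was 0.30, against 0.039 for all genes. The immunoproteasome subunits Psmb9 and Psmb8 differed by 0.69 and 0.58 and the class I chain H2-K1 by 0.38, without passing, whereas H2-K1 rose in the mean over both sites (0.31, limma adjusted p = 0.0233). Between the labelled sites at P5, Nlrc5 and the proteasome activator gene Psme1, named here after its value was seen, were higher in the arrays labelled tail (1.28 and 0.57). In that comparison 4.3% of all genes were called higher. The class I list mean was highest, at 0.47, on P5 Tail replicate 2, and 0.14 on each of the other P5 Tail arrays. Of 22 interferon gamma response genes none passed in tail, and 3 fell in the back arrays: Irf1, Jak1 (-0.70) and the chemokine Cxcl10 (-0.75). Over all genes, 2.03% were called lower in back.

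Genes of the cells that carry class II molecules did not rise as a group. Of 28 measured Langerhans and dendritic cell genes, 2 rose and 4 fell in the tail arrays, with a median of -0.049. Over all genes, 3.34% were called higher and 1.96% lower there. Those that fell were Clec4a3 (-1.26), the lectin gene Clec10a (-0.93), Cd1d1, a lipid antigen presenting molecule (-0.85), and Cd24a (-0.49). The 2 that rose, named here after their values were seen, were Epcam (0.66), which keratinocytes also express, and Itgae (0.51), the integrin chain that binds E-cadherin and is also carried by epidermal T cells. For the genes that fell as for those that rose, the cells of origin cannot be told in these bulk samples and were not tested. Of 13 growth and retention factors of Langerhans cells and their receptors, 2 fell in tail: Csf1r (-0.68), the receptor of IL-34 and CSF-1, and Tgfbr1 (-0.55).

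Genes of other cell types moved in the same comparison, and their part in the class II differences was not tested. In these bulk samples a smaller number of cells of a type and less RNA per cell cannot be told apart. Among all genes, 1.96% were called lower and 3.34% higher in the tail arrays. Of 27 measured macrophage and monocyte genes 10 fell and none rose in the tail arrays (median -0.45), among them Pf4 (-1.58), Mrc1 (-1.36), Cd163 (-1.21) and Fcgr3 (-0.88). The mean of this list lay between 0.13 and 0.31 in P1 Tail and between -0.54 and -0.073 in P5 Tail, without overlap, and between -0.14 and 0.12 on all back arrays. Of 20 pan-leukocyte genes 3 fell (Plek, Tyrobp and Cd53), of 10 mast cell genes 5 fell, of 11 B cell genes Ebf1 fell, and of 10 neutrophil genes and 14 endothelial genes none passed. Of 13 adipocyte genes 6 fell and 1 rose (median -0.76), with Adipoq at -1.75, Cidec at -1.68 and Retn at -1.55, and the list mean lay between 0.83 and 1.22 in P1 Tail and between 0.039 and 0.44 in P5 Tail. Of 18 skeletal muscle genes 3 fell and none rose (median -1.16), with list means of 0.47 to 1.64 in P1 Tail and -0.55 to -0.24 in P5 Tail.

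Keratinocyte genes and 2 T cell genes rose in the tail arrays, where 3.34% of all genes were called higher. Of 21 measured keratinocyte genes 5 rose and none fell (median 0.60), among them, named after their values were seen, the basal keratins Krt14 (0.87), Krt5 (0.54) and Krt15 (0.96). The mean of the keratinocyte list lay between -1.03 and 0.13 in P1 Tail and between -0.0082 and 0.40 in P5 Tail, with overlap. On P1 Tail replicates 4, 5 and 6 this list mean was -1.03, 0.13 and -0.37, where Cd74 read -0.60, -0.011 and -0.28. In the back arrays the list took the opposite course, from 0.38 to 0.65 at P1 to -0.77 to -0.34 at P5. There 10 of its genes fell and none rose, against 2.03% of all genes called lower. No class II member passed in back. A link between the keratinocyte list and the class II members was not tested. Of 14 T cell genes 2 rose in tail, Cd3g (1.68, SE 0.21, limma adjusted p = 0.000591) and Cd3d (0.52), chains of the T cell receptor complex. The Cd3g interaction of age and labelled site passed as well (1.49, SE 0.29, limma adjusted p = 0.0165).

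**Figure D4:**
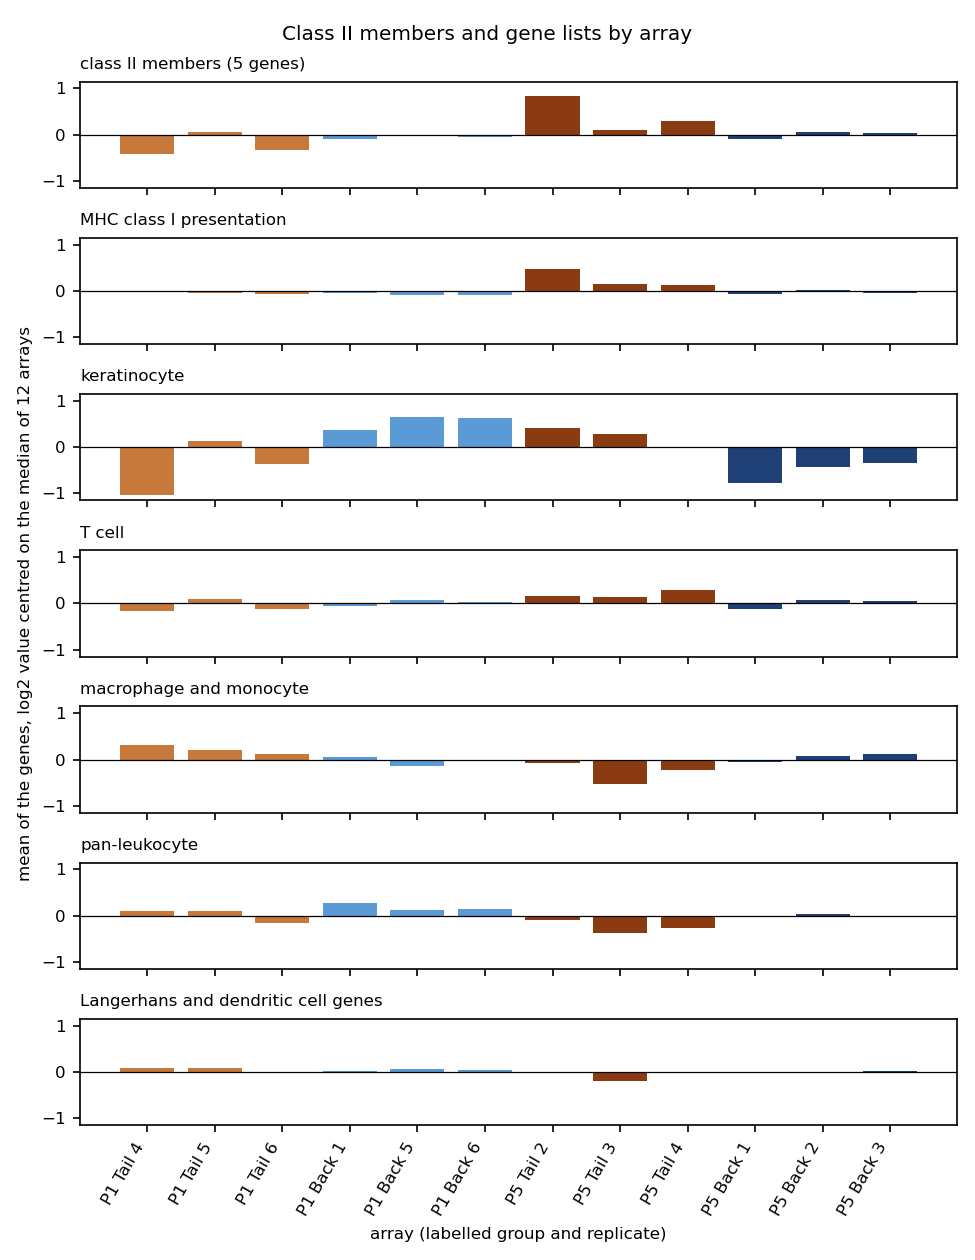
Bars give, for each of the 12 arrays on the x axis, the mean log2 value centred on the median of the 12 arrays over the 5 measured class II members and over the genes of 6 lists. The class II mean was highest on P5 Tail replicate 2 (0.84), with 0.29 and 0.11 on replicates 4 and 3. The macrophage list was lowest on P5 Tail replicates 4 and 3 (-0.23 and -0.54). The keratinocyte list was lower in P5 Back than in P1 Back, and the class II mean lay between -0.092 and 0.051 on the back arrays. A link between the lists and the class II mean was not tested.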

How the data were processed

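The authors processed 12 Affymetrix MG430.2A arrays with RMA in GeneSpring. The deposited table gives log2 values for 45101 probe sets, each with a median over the arrays of 0 (largest deviation 1e-06). The base of the logarithm is taken from RMA, and no genome build is given in the sources used here. The methods' filter on low values could not be repeated on centred values. Of 45037 probe sets left without 64 controls, 34945 had 1 gene symbol in GEO's platform annotation, 932 several and 9160 none; those with 1 symbol were averaged to 18193 genes. Array medians over all probe sets lay between -0.023 and 0.014, no 2 arrays held identical values, and precision is limited by the number of arrays.

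Differences, SE and p-values came from limma 3.58.1 (lmFit and eBayes, R 4.3.3) on all 12 arrays in 4 groups without covariates, with Benjamini-Hochberg adjustment over all genes in each of 6 comparisons and a threshold of 0.05; intervals are 95%. Probe sets were also fitted singly. Members were named throughout. From each of 21 lists (305 measured genes) up to 4 genes were to be named, those with the largest difference between the ages over both sites (between sites for Hox and adipocyte genes); for likeness, the 5 highest correlations. Members and lists were chosen with earlier results of these data known. Lists are described by counts and medians, without a test. Samples were grouped by their titles. Same-numbered tail and back arrays of an age were checked for shared deviations: the correlations were 0.264, -0.014, 0.173 and -0.021, and the numbers were not taken as pairs. The alternatives were another scaling, robust variances, array weights, fewer arrays, blocks, probe set choice, a filter and an unpaired t-test. The methods name that t-test in general and give no test for the arrays. The procedure was tested on simulated data.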

Additional observations from a re-analysis of the deposited data

How the results depend on the processing

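Over all results and alternatives 988 values were computed, of which 900 kept their direction and their side of the threshold (counts: stayed within 1.5 times), 34 no longer passed, 12 newly passed, 11 turned sign and 31 counts moved. In the arrays labelled tail the number of members that passed between P1 and P5 was 2, and 0 with array weights, with only the arrays compared and with the methods' t-test, which called 1 unadjusted. Leaving out 1 array gave 0 to 5: 0 without P1 Tail replicate 4, P1 Tail replicate 6 or P5 Tail replicate 2, 4 without P1 Tail replicate 5, 5 without P5 Tail replicate 3, 3 without P5 Tail replicate 4 (H2-Aa, H2-Ab1 and H2-Eb1, with Cd74 at an adjusted p of 0.055), and 1 (Cd74) without any single back array. The Cd74 difference in tail then ran from 0.66 to 1.19 and its adjusted p from 0.00424 to 0.129, and that of H2-Eb1 from 0.41 to 0.65 and its adjusted p from 0.0236 to 0.187 (limma). For the mean over both sites the count was 1, and 0 with array weights, the largest-SD probe set of each gene, probe sets ending in _x_at or _s_at left out, or the 20% of genes with the smallest SD left out. Leaving out 1 array gave 0 to 2 there, 0 to 1 between sites at P5 and 0 to 1 for the interaction; the upper value came without P5 Tail replicate 3 in each. Array weights gave P5 Tail replicate 2 the lowest weight, 0.18.

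The replicate numbers of the labels were tried as pairs. With the replicate block as a random effect (consensus correlation 0.14) 2 members passed in tail and 0 in the mean over both sites, and as a fixed block 0 passed between sites and for the interaction. Sign changes touched small values only: H2-Aa in back was -0.030 with its largest-SD probe set, H2-Ab1 in back 0.0076 with array weights and -0.11 to 0.090 with 1 array left out, and Ciita in tail -0.15 with its largest-SD probe set and -0.062 to 0.12 with 1 array left out. H2-Eb1 between sites at P5 ran from -0.040 to 0.17, and the Ciita interaction from -0.13 to 0.050. The cause of these changes was not tested. H2-Aa has no value once probe sets ending in _x_at or _s_at are left out, a fixed block could not be used between the ages, and a filter on level was not run because the values are centred.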
